A study of Mus musculus with 6 samples.

Results

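The intercalated disc is the junction through which neighbouring cardiomyocytes hold on to each other and pass force and current. Its desmosomes are built from the cadherins desmoglein 2 and desmocollin 2, from the armadillo proteins plakoglobin and plakophilin 2, and from desmoplakin, which ties the plaque to the desmin filaments of the sarcomeres. Alpha-T-catenin, vinculin and the Xin-repeat protein XIRP2 link the same junctions to actin, while desmin meets the nucleus at a lamina made of lamin A/C, and mutations of the desmosomal genes are a known cause of arrhythmogenic cardiomyopathy. The 10 genes of this network that are described here (Pkp2, Dsp, Dsg2, Dsc2, Jup, Ctnna3, Xirp2, Des, Lmna and Vcl) were taken by name from the 43629 genes listed in the count files. All 10 were found under a single Ensembl identifier, and all 10 passed the filter on low counts that left 15470 genes for testing.

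RNA-Seq was performed on primary ventricular cardiomyocytes from CD-1 mouse embryos at embryonic day 13.5, cultured for 48 h and then transfected with 12 nM of a non-targeting negative siRNA or of a pool of 4 siRNAs against DNMT1, the methyltransferase that copies CpG methylation after DNA replication. Cells were collected 72 h after transfection and sorted magnetically on the surface protein VCAM1, with 3 cultures per treatment. The labels do not say whether the 3 cultures of a treatment came from separate litters. The p-values therefore set the difference between treatments against the spread between these cultures only. The titles name DNMT1, whereas the treatment tag of the same 3 samples names DNMT3a siRNA; Dnmt1 itself had 3446, 2759.5 and 2878 normalized counts (raw counts divided by each library's relative effective size) with negative siRNA against 772, 786 and 666 with DNMT1 siRNA, and Dnmt3a was not lower in any DNMT1 siRNA culture.

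Between 27852412 and 35896018 reads per library were counted on genes with negative siRNA and between 13739561 and 16186310 with DNMT1 siRNA, while the share of uniquely mapped reads outside exons was 14.6 to 17.5% and 24.4 to 32.0%. The share of reads that were ambiguous between genes was 3.58 to 3.65% with negative siRNA and 6.02 to 6.35% with DNMT1 siRNA. Depth, both shares and treatment therefore moved together and cannot be told apart. When every library was thinned to 13739561 counts, the log2 fold changes of Dsp and Dsc2 were 0.75 and 1.21. The summed level of 15 cardiomyocyte markers was 2382 to 3201 CPM (counts per one-million-count library after TMM scaling) with negative siRNA and 5569 to 6849 with DNMT1 siRNA. By the rule given below, 11 of the 15 were called higher, where 4.26% of all tested genes were. The 10 fibroblast and mesenchymal markers include 3 collagens and fibronectin. Their summed level was higher, at 57294 to 75726 CPM with negative siRNA and 45858 to 48419 with DNMT1 siRNA. By the same rule 3 of these 10 were called lower and 0 higher, where 2.23% of all tested genes were called lower, and their median log2 fold change was -0.41. The cells are labelled as sorted cardiomyocytes, and the paper cites earlier flow cytometry in which nearly all cells sorted this way were cardiomyocytes. These sums are not per length and do not count cells, so they cannot give the share of each cell type. In such bulk samples, fewer cells of a type and less RNA per cell cannot be told apart.

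Genes were called up-regulated or down-regulated when the FDR of edgeR's quasi-likelihood test, adjusted by Benjamini-Hochberg over all 15470 genes, was below 0.05 and the fold change was above 1.5. By this rule 2 of the 10 genes, Dsp and Dsc2, were up-regulated by DNMT1 siRNA and none was down-regulated, where 4.26% of all tested genes were called higher and 2.23% lower. The count of down-regulated genes among the 10 was also 0 by DESeq2 and by edgeR's exact test, and 1 was lower with an unadjusted p below 0.05, as were 14.3% of all tested genes (14.9% were higher). With the FDR limit alone, the same 2 genes were higher and 1, Lmna, was lower (6.81% and 5.65% of all tested genes). The normalized counts of 4 genes were higher in every DNMT1 siRNA culture than in any negative siRNA culture, and those of 1 gene were lower in every one, against 18.3% and 17.7% of all tested genes. The median log2 fold change was 0.20 over the 10 genes and -0.0049 over all tested genes.

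**Figure D1:**
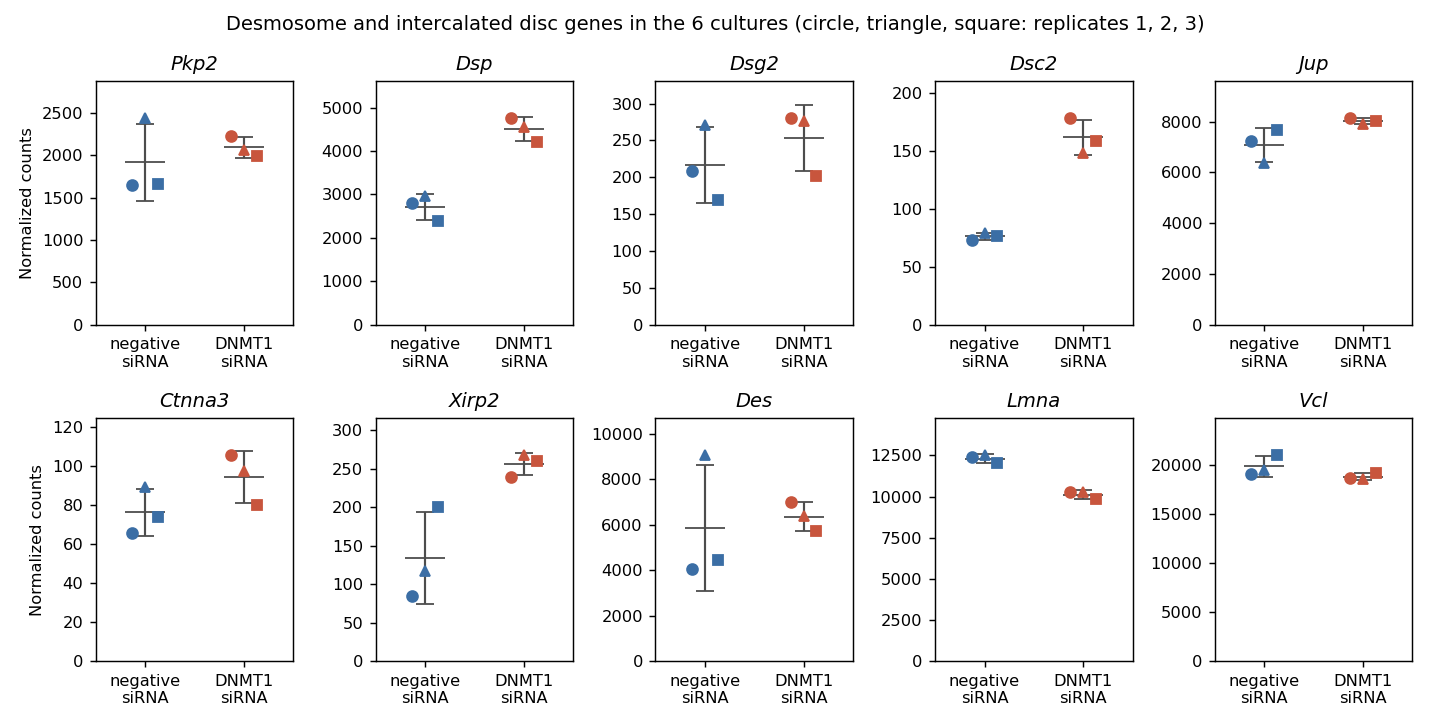
Normalized counts (vertical axes, from 0) of the 10 genes in the 3 negative siRNA and 3 DNMT1 siRNA cultures; symbols mark the replicate number, and bars give the mean and SD. Dsp, Dsc2, Jup and Xirp2 lie higher in every DNMT1 siRNA culture and Lmna lies lower, while the points of the other 5 genes overlap.

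DNMT1 copies methylation at CpG sites, so the CpG content at gene starts was counted. Promoter windows in RefSeq (GRCm38.p6, 250 bases before to 50 after the start) were read for Dsp, Jup, Ctnna3, Xirp2, Des, Lmna and Vcl. Sequence outside these windows was not read. Pkp2, Dsg2 and Dsc2 are only named here. The window of Dsp, a gene that was up-regulated, held 27 CpG dinucleotides, more than 84.5% of the 32851 windows in the table. The window of Xirp2 held 1, and only 5.43% of windows held fewer. Vcl, whose expression was close to equal in both treatments, had a window as rich in CpG as that of Dsp, with 30. Jup had 14, Des 11, the 2 windows of Lmna 1 and 7, and the 3 windows of Ctnna3 39, 7 and 2, against a median of 7 per window over the whole table. DNA methylation of these windows was not analysed here.

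The 250 bases before the start are shown for Dsp as the CpG-rich gene that was up-regulated, for Xirp2 as a CpG-poor gene and for Vcl as a CpG-rich gene with little difference. Capitals mark each CpG in Dsp, the match to the MEF2 motif in Xirp2 and the match to the CArG box, the site of serum response factor, in Vcl. All are on the plus strand of GRCm38.p6, at chr13:38151044-38151293, chr2:67445752-67446001 and chr14:20929148-20929397.
Dsp: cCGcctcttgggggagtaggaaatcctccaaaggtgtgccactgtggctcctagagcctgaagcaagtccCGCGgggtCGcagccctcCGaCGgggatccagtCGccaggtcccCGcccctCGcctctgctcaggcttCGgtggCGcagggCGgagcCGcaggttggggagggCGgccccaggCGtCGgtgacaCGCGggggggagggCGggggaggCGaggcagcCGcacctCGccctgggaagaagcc
Xirp2: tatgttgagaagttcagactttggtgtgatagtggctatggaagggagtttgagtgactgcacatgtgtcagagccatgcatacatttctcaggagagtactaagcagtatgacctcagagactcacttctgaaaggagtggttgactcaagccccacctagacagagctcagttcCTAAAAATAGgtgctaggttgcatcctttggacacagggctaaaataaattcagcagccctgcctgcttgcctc
Vcl: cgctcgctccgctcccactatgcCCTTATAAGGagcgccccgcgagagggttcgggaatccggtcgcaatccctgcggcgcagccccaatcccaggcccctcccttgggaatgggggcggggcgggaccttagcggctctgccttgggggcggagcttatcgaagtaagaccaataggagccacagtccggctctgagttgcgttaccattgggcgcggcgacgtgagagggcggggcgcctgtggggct

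The MEF2 match of Xirp2, CTAAAAATAG, began 74 bases before the start, and 3.19% of all windows held a match to that motif on either strand. The CArG match of Vcl, CCTTATAAGG, began 227 bases before the start, and 1.63% of windows held one. Neither window held a match to the other of these motifs. An E-box (CANNTG, which reads the same on both strands) was found in the windows of Dsp, Xirp2 and Des and in 1 of the 3 of Ctnna3, against 72.3% of all windows. The MCAT element CATTCC, on either strand, was found in the window of Vcl and in 1 of Ctnna3, against 14.7% of all windows. These are matches of letters within the window and not measured binding sites.

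Desmoplakin, the protein that anchors the desmosomal plaque to desmin, was the more abundant of the up-regulated pair. Dsp (chromosome 13, 38151294 to 38198577 in GRCm38) had 2798, 2971 and 2390 normalized counts in negative siRNA replicates 1 to 3, and 4755, 4552 and 4199.95 in DNMT1 siRNA replicates 1 to 3. The lowest DNMT1 siRNA culture was thus above the highest negative siRNA culture. The fold change was 1.66 (log2 0.73, SE 0.093, edgeR adjusted p = 0.00319), and the 95% interval of the fold change ran from 1.43 to 1.92. Its log2 fold change stayed between 0.64 and 0.79 and past both limits in all 13 alternative settings, including each of the 6 in which a culture was left out.

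Desmocollin 2, the cadherin that pairs with desmoglein 2 across the cell border, had a low expression level but differed by more. Dsc2 had 73.5, 79.3 and 76.2 normalized counts with negative siRNA and 178, 149 and 159 with DNMT1 siRNA, from 97 to 133 raw counts per library. The groups did not overlap. The negative siRNA cultures had a coefficient of variation of 3.77%, but 3 cultures at such low counts estimate their spread poorly. The fold change was 2.12 (log2 1.08, SE 0.144, edgeR adjusted p = 0.00354; 95% interval of the fold change 1.69 to 2.67). It was past both limits in all 13 alternative settings, with log2 fold changes from 0.98 to 1.21.

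The partners of these 2 proteins were not called. Dsg2, the desmosomal cadherin desmoglein 2, had 209, 272 and 169 normalized counts with negative siRNA and 280.3, 277 and 201 with DNMT1 siRNA, and the groups overlapped. Its log2 fold change was 0.23 (SE 0.20, edgeR adjusted p = 0.496), with a 95% interval from -0.24 to 0.69. Pkp2, plakophilin 2, which clusters the desmosomal plaque, had 1648, 2439 and 1663 normalized counts against 2231, 2061 and 1994. Its negative siRNA replicate 2 was above all 3 DNMT1 siRNA cultures, and the log2 fold change was 0.13 (SE 0.15, edgeR adjusted p = 0.603). Without that culture it was 0.34 with an adjusted p of 0.0112, still below the fold limit.

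Plakoglobin, encoded by Jup and shared by desmosomes and adherens junctions, was the most abundant desmosomal transcript. Jup had 7222, 6374 and 7659 normalized counts with negative siRNA and 8138, 7899 and 8012 with DNMT1 siRNA. The groups did not overlap, but the log2 fold change was 0.18 (SE 0.080, edgeR adjusted p = 0.183) and its 95% interval, from -0.0050 to 0.36, lay wholly below 1.5-fold.

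**Figure D2:**
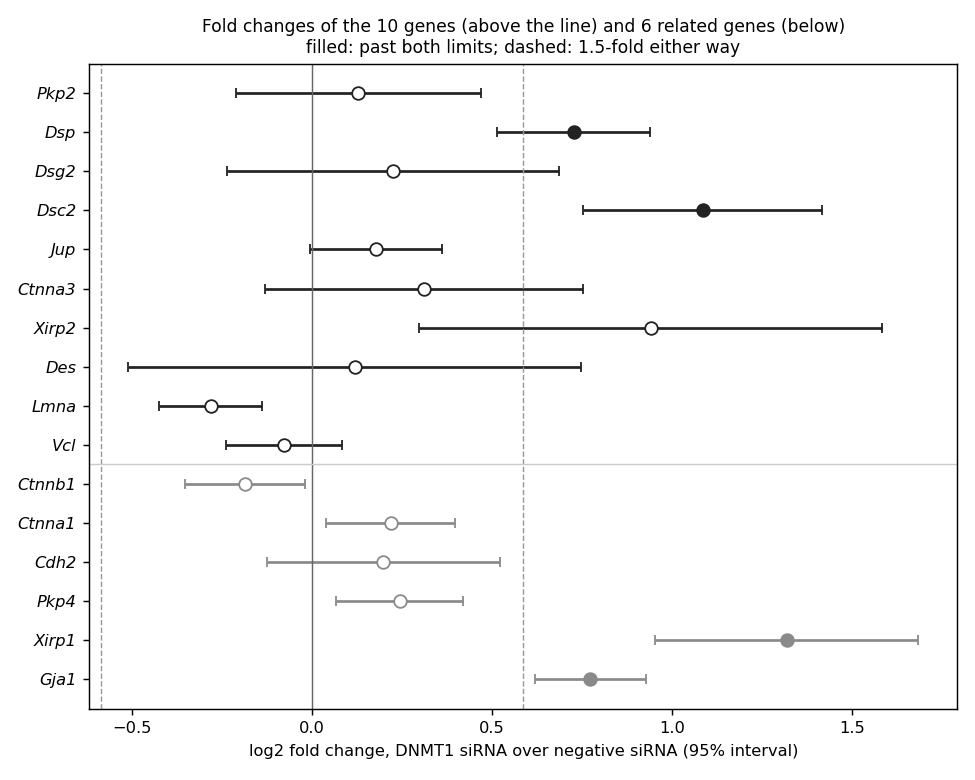
Log2 fold change of DNMT1 siRNA over negative siRNA (horizontal axis) with its 95% interval for the 10 genes and, under the line, for 6 related junction genes; filled points passed both the FDR and the 1.5-fold limit, which is dashed. Dsp (0.73) and Dsc2 (1.08) are filled among the 10, and Xirp1 and Gja1 among the related genes.

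Of Xirp2, Ctnna3 and Vcl, the genes of the 10 that join the disc to actin, Xirp2 differed most but was not called. XIRP2 is an actin-binding protein of the disc and a known target of MEF2A. Xirp2 (chromosome 2, 67446002 to 67526614) had 84.6, 117 and 201 normalized counts with negative siRNA and 240.03, 268 and 260.04 with DNMT1 siRNA. All DNMT1 siRNA cultures were higher, and the negative siRNA cultures spread over 2.37-fold while the DNMT1 siRNA cultures spread over 1.12-fold. The fold change was 1.92 (log2 0.94, SE 0.28) with a 95% interval from 1.23 to 3.00, and the unadjusted p was 0.00953 while the adjusted p of 0.0643 missed the limit. The call depended on the setting: DESeq2 and edgeR's exact test gave adjusted p-values of 0.0098 and 0.0189 with log2 fold changes of 0.91 and 0.94. Leaving out negative siRNA replicate 3, the highest of its group, gave a log2 fold change of 1.35 and an adjusted p of 0.00762, and in the other 5 fits that left out a culture the adjusted p was between 0.0811 and 0.202.

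Ctnna3, which encodes the alpha-T-catenin of the mixed junctions of the disc, was among the least abundant of the 10. It had 65.9, 89.6 and 73.9 normalized counts with negative siRNA and 106, 97.7 and 80.1 with DNMT1 siRNA, and the groups overlapped. The log2 fold change was 0.31 (SE 0.19, edgeR adjusted p = 0.323), and at 49 to 130 raw counts per library its 95% interval reached from -0.13 to 0.75. Vcl, vinculin, which anchors actin at adherens junctions and costameres, had 19015, 19478 and 21004.5 normalized counts against 18699, 18513 and 19176. The groups overlapped and the log2 fold change was -0.08 (SE 0.070, edgeR adjusted p = 0.501; 95% interval -0.24 to 0.08). Exons of Ap3m1 on the opposite strand cover 25.5% of the exon bases of Vcl, and the library kit does not mark strand. Ap3m1 had 1037 to 1187 normalized counts in any culture. Reads that fall on both genes can be left out of both counts as ambiguous, and how many Vcl reads were left out was not tested.

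Desmin, the intermediate filament to which desmosomes are tied, varied more between negative siRNA cultures than between treatments. Des had 4063, 9062 and 4435 normalized counts with negative siRNA and 6984, 6359.6 and 5726 with DNMT1 siRNA. All DNMT1 siRNA cultures lay between negative siRNA replicate 2 and the other two. The log2 fold change of 0.12 (SE 0.27, edgeR adjusted p = 0.809) had a 95% interval from -0.51 to 0.75, was -0.086 without negative siRNA replicate 1 and -0.045 without replicate 3, and was 0.58 with an adjusted p of 0.00278 without replicate 2, just under the fold limit. The cardiomyocyte, fibroblast, smooth muscle and endothelial marker lists also had their highest summed levels of the negative siRNA group in replicate 2 (3201, 75726, 8060 and 183 CPM). The epicardial and macrophage lists had theirs in replicate 3 (2470 and 42.8 CPM). The part of these levels in the Des value was not tested.

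Lmna, which encodes the lamins A and C of the nuclear lamina, was the only gene of the 10 that was lower by the FDR limit. Lmna (chromosome 3, 88480147 to 88509956) had 12385, 12532 and 12021 normalized counts with negative siRNA and 10277, 10270.4 and 9839 with DNMT1 siRNA, with coefficients of variation of 2.13% and 2.48%. Every DNMT1 siRNA culture was below every negative siRNA culture. The log2 fold change was -0.28 (SE 0.063, edgeR adjusted p = 0.026), with a 95% interval of the ratio from 0.744 to 0.909, so that the difference was small and did not reach the fold limit. The fits with 1 of the 3 DNMT1 siRNA cultures removed gave adjusted p-values of 0.0926 to 0.124 with log2 fold changes of -0.32 to -0.28.

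Across the 10 genes, negative siRNA replicate 2 was the highest of its group for 7, and DNMT1 siRNA replicate 1 was the highest of its group for 8. The ratio of the highest to the lowest culture was larger with negative siRNA for 8 genes, with medians of 1.30 against 1.13. Xirp2 and Des were the most variable of the 10 in the negative siRNA group.

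Levels can be compared between genes only per length, and are given as CPM per kilobase of exon. With negative siRNA the order from high to low was Vcl at 112 ± 5.85 (SD, n = 3), Lmna at 97.1 ± 2.07, Des at 71.8 ± 34.2, Jup at 50.7 ± 4.68, Pkp2 at 16.5 ± 3.89, Dsp at 12.97 ± 1.42, Dsg2 at 1.21 ± 0.289, Dsc2 at 0.666 ± 0.0251, Xirp2 at 0.516 ± 0.230 and Ctnna3 at 0.487 ± 0.0768. The ranges of Lmna and Des, of Des and Jup, of Pkp2 and Dsp, of Dsc2 and Xirp2 and of Xirp2 and Ctnna3 overlapped, so these neighbours in the order were not separated. The desmosome was thus unequally represented, with the plaque genes Jup, Pkp2 and Dsp well above the 2 cadherins. With DNMT1 siRNA, Dsp at 21.5 ± 1.34 stood above Pkp2 at 18.004 ± 1.05 without overlap, and Dsc2 at 1.41 ± 0.132 stood level with Dsg2 at 1.41 ± 0.249. These orders depend on the length used: with the longest transcript in place of all exon bases, Jup moved above Des and Ctnna3 above Dsc2 in the negative siRNA order, and with DNMT1 siRNA Pkp2 at 32.9 was above Dsp at 21.6.

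The balance within the desmosome was therefore examined as the share of each gene in the summed level per kilobase of Jup, Dsp, Pkp2, Dsg2 and Dsc2. The share of Dsp was 16.5, 17.1 and 13.9% in the negative siRNA cultures and 21.97, 21.97 and 20.6% in the DNMT1 siRNA cultures. The share of Dsc2 was 0.792, 0.834 and 0.810% against 1.51, 1.31 and 1.43%. Neither share overlapped between treatments (exact permutation test, two-sided p = 0.1 for each, below which this design cannot go). The shares of Jup (61.9% ± 6.12 against 57.6% ± 1.38, SD, n = 3), Pkp2 (20.1% ± 4.52 against 18.1% ± 0.472) and Dsg2 (1.47% ± 0.341 against 1.41% ± 0.222) overlapped. The summed level of the 5 genes was 82.0 ± 0.980 and 99.7 ± 3.19 CPM per kilobase and did not overlap (exact permutation test, two-sided p = 0.1).

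Ratios of raw counts within a library do not depend on scaling. There were 1.70, 1.22 and 1.44 Dsp counts per Pkp2 count with negative siRNA and 2.13, 2.21 and 2.11 with DNMT1 siRNA. The ratio of Dsc2 to Dsg2 was 0.352, 0.292 and 0.452 against 0.636, 0.537 and 0.789, and that of Jup to Ctnnb1, the beta-catenin that is its close relative, was 0.534, 0.529 and 0.635 against 0.722, 0.735 and 0.723. None of these 3 ratios overlapped between treatments. The ratio of Ctnna3 to its widely expressed relative Ctnna1 overlapped (0.00730 ± 0.00173 against 0.00764 ± 0.000904, SD, n = 3), as did that of Xirp2 to Xirp1 (0.294 ± 0.154 against 0.219 ± 0.0290). In all 21 ratios were computed, 12 of them did not overlap between treatments, and none could go below a two-sided exact permutation p of 0.1 or, adjusted over the 21, of 0.175.

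Because the cardiomyocyte markers were also higher with DNMT1 siRNA, the same ratios were taken against sarcomere genes. These were themselves higher, with fold changes of 2.38 for Actn2 and 1.53 for Tnnt2, so any gene that rose less had a lower ratio. Per count of Actn2, the sarcomeric alpha-actinin, there were 1.72, 1.10 and 1.23 Dsp counts with negative siRNA but 0.840, 0.942 and 0.960 with DNMT1 siRNA, so Dsp was lower relative to Actn2. Per count of Tnnt2, the cardiac troponin T, there were 0.145, 0.169 and 0.173 Dsp counts against 0.171, 0.172 and 0.183, which overlapped. Relative to Actn2 the ratios of Pkp2, Jup, Dsg2, Des and Ctnna3 were also lower in every DNMT1 siRNA culture, while those of Dsc2 (0.0380 ± 0.00800 against 0.0328 ± 0.00298, SD, n = 3) and Xirp2 (0.0663 ± 0.0323 against 0.0524 ± 0.00892) overlapped. Per count of Tnnt2, Dsc2 was higher in every DNMT1 siRNA culture (0.00462 ± 0.000859 against 0.00631 ± 0.000654).

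**Figure D3:**
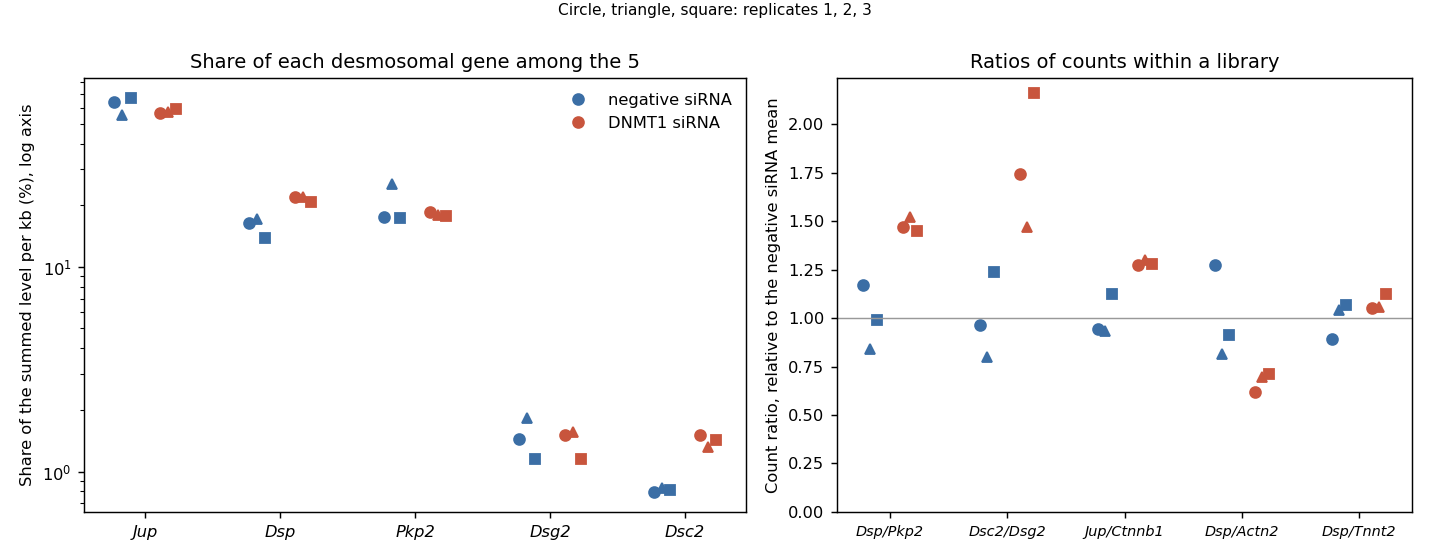
Left, share of each of the 5 desmosomal genes in their summed level per kilobase (percent, log axis) in each culture; right, ratios of raw counts within a library, divided by the mean of the negative siRNA cultures. The shares of Dsp and Dsc2 are higher in every DNMT1 siRNA culture, whereas the Dsp ratio is lower against Actn2 and overlaps against Tnnt2.

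Desmosomal genes are also expressed by epithelia and by the epicardium. The summed level of 11 epicardial and epithelial markers was 2086 to 2470 CPM with negative siRNA and 2423 to 2527 with DNMT1 siRNA, and 1 of the 9 tested, Krt19, was called, lower. The epithelial markers Cdh1 and Epcam had fewer than 10 normalized counts in every library. Per count of Krt7, a keratin of the mesothelium, there were 1.01, 1.22 and 0.894 Dsp counts against 1.42, 1.39 and 1.36, and the groups did not overlap, whereas per count of the mesothelial gene Upk3b there were 0.229, 0.295 and 0.166 against 0.326, 0.328 and 0.290, which overlapped. The 9 endothelial markers had summed levels of 138 to 183 against 209 to 215 CPM with 2 of 8 tested called higher, the 7 smooth muscle markers 5438 to 8060 against 4559 to 4749 CPM with 1 called lower, and the 8 macrophage markers 15.9 to 42.8 against 13.2 to 20.1 CPM with 1 called lower. Over all tested genes, 4.26% were called higher and 2.23% lower. With DESeq2 and edgeR's exact test, 5 macrophage markers were called lower by each, and 4 and 2 endothelial markers higher, while of the smooth muscle markers DESeq2 called 1 higher and 1 lower and the exact test 2 lower. Cldn5, an endothelial marker, was at 0 in 2 DNMT1 siRNA libraries and had fewer than 3 normalized counts elsewhere. None of the markers was at 0 in every library. The part of these cell types in the results was not tested.

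The wider neighbourhood of the disc was described with 6 lists that hold 89 further genes, of which 81 were tested. With DNMT1 siRNA, 13 of them were called higher and 2 lower, where 4.26% and 2.23% of all tested genes were. In the list of 13 other desmosomal genes, 7 were not tested, namely the epidermal cadherins Dsg1a, Dsg1b, Dsg1c, Dsg3, Dsg4, Dsc1 and Dsc3, which had at most 13.1 normalized counts in any library. Of the 6 tested, 1 was called: Perp, a tetraspan protein of desmosomes, had 734, 467 and 825 normalized counts against 1184, 1141 and 1083 (log2 fold change 0.75, SE 0.18, edgeR adjusted p = 0.0349). The Perp call was lost without negative siRNA replicate 2 (log2 0.55) and without any 1 DNMT1 siRNA culture (adjusted p 0.109 to 0.132). Pkp4, a relative of plakophilin 2, had 1495 to 1701 against 1806 to 2011 normalized counts (log2 fold change 0.24, SE 0.077, edgeR adjusted p = 0.075) and was not called. Pkp1, the epidermal plakophilin, mentioned because of its value, had 11.1, 5.51 and 7.78 against 12.1, 30.6 and 37.6 normalized counts, with a log2 fold change of 1.67 (SE 0.47) and an edgeR adjusted p of 0.054 that missed the limit. Log2 fold changes on this list ran from -1.06 to that of Pkp1 with a median of 0.12, and only 3 of the 6 tested were positive. DESeq2 called 2 of them higher and 0 lower, and the exact test 2 higher and 1 lower.

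Of the 17 adherens junction genes, 16 were tested and 1 was called, higher, where 4.26% of all tested genes were, so the count was near that share. This was Arvcf, an armadillo protein that binds cadherins, with 692, 764 and 1082 against 1597, 1571 and 1516 normalized counts (log2 fold change 0.89, SE 0.15, edgeR adjusted p = 0.0101). Without DNMT1 siRNA replicate 1 or 2 its adjusted p was 0.0527 or 0.0587. The core of the junction was not called, with log2 fold changes of 0.20 for Cdh2, the N-cadherin of the disc (edgeR adjusted p = 0.394), -0.19 for Ctnnb1 (0.135) and 0.22 for Ctnna1 (0.106). The median over the list was 0.17.

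The genes for actin linkage and for conduction held most of the up-regulated genes. Of 23 actin linkers of the disc and costamere, 6 were up-regulated and 1 was down-regulated (4.26% and 2.23% of all tested genes). Nrap, a linker of nascent myofibrils to the disc, had 107, 170 and 152 against 419.7, 395 and 417 normalized counts (log2 fold change 1.52, SE 0.17, edgeR adjusted p = 0.00199). Xirp1, the relative of Xirp2, had 391, 601 and 425 against 1289.98, 1157 and 1084 normalized counts (log2 fold change 1.32, SE 0.16, edgeR adjusted p = 0.00253). Actn2, which is also on the cardiomyocyte list, and Popdc2, a membrane protein of the Popeye domain family, had log2 fold changes of 1.25 and 1.04. The down-regulated gene, chosen for mention after its value was seen, was Lpp, a zyxin relative of focal adhesions, at -0.64.

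Of the 8 gap junction and channel-related genes of the disc that are described here, 4 were up-regulated, where 4.26% of all tested genes were. None was lower by edgeR, by DESeq2 or at an unadjusted p below 0.05, and the median log2 fold change was 0.46. Gja1, connexin 43, the main ventricular gap junction protein, had 4354, 4339 and 4646 against 8009, 7418 and 7376 normalized counts (log2 fold change 0.77, SE 0.068, edgeR adjusted p = 0.000837). Ank3, ankyrin G, a scaffold of membrane proteins, had a log2 fold change of 0.82. Gja5 and Gja3, connexins 40 and 46, stood at 1.28 and 1.00 but had at most 83.1 normalized counts in any library. Gja1 and Ank3 passed both limits in all 13 alternative settings, but these low genes did not. The call of Gja5 was kept only without negative siRNA replicate 2 among the 6 fits that left out a culture, where its adjusted p ranged from 0.0192 to 0.142, and that of Gja3 was lost in all 6, with adjusted p-values of 0.0504 to 0.201.

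Among 13 intermediate filament genes and partners, 1 was up-regulated and 1 was down-regulated, where 4.26% and 2.23% of all tested genes were. The median log2 fold change was -0.07. Cryab, the small heat shock protein that protects desmin, had 4154, 4108 and 4108 against 6416, 6202 and 6315 normalized counts (log2 fold change 0.61, SE 0.058, edgeR adjusted p = 0.00112), and without DNMT1 siRNA replicate 1 its log2 fold change of 0.58 was just under the fold limit. Krt19, a keratin of simple epithelia that is also on the epicardial list, had a log2 fold change of -0.82 (edgeR adjusted p = 0.0242), which lost its call without negative siRNA replicate 3 or any 1 DNMT1 siRNA culture (adjusted p 0.0557 to 0.0913). None of the 15 nuclear envelope genes was called with both limits by edgeR's quasi-likelihood test, nor by DESeq2 or the exact test, while 4 higher and 3 lower genes had an unadjusted p below 0.05 (14.9% and 14.3% of all tested genes), and the median was 0.02.

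**Figure D4:**
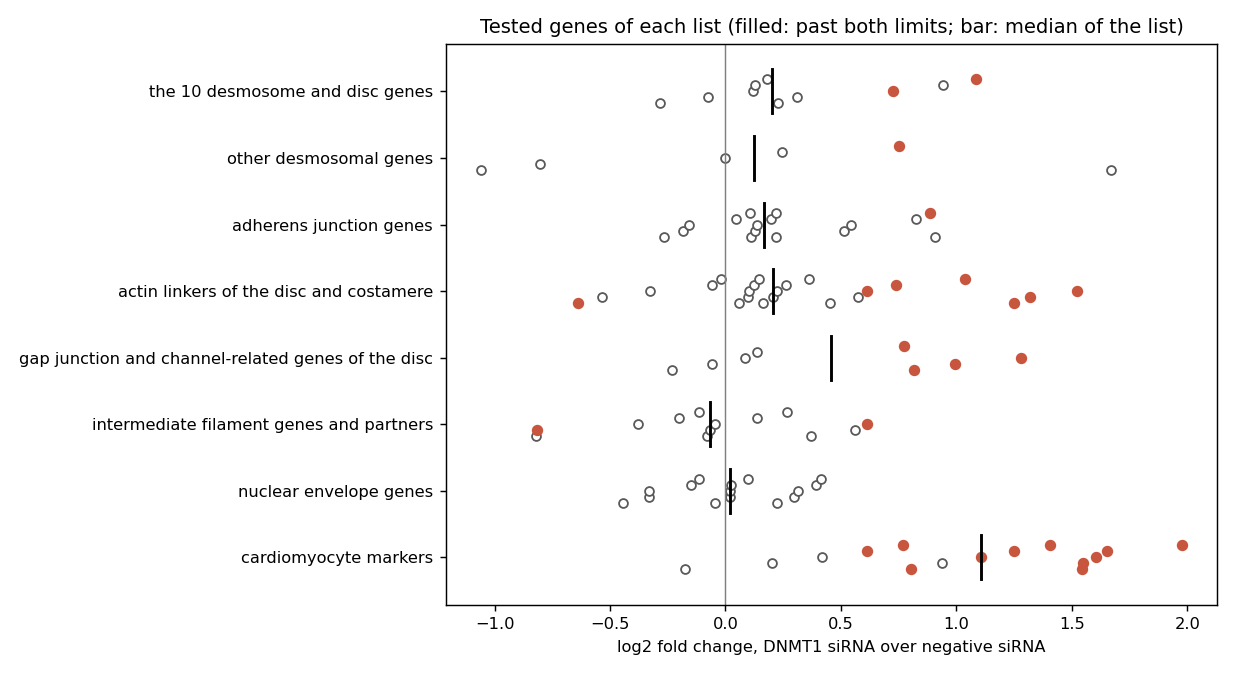
Log2 fold change (horizontal axis) of each tested gene in the 10 desmosome and disc genes, the 6 wider lists and the cardiomyocyte markers; filled points passed both limits and bars give each list's median. The gap junction and channel-related list (median 0.46) and the cardiomyocyte markers (median 1.11) lie farthest to the right, and the intermediate filament list (median -0.07) lies left of 0.

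The genes whose log2 CPM over the 6 libraries was most like that of Dsp were Ank3 and Fam174b (Pearson r = 0.998 for each), and those most like Dsc2 were Cidea (0.999) and Entpd5 (0.998). These values describe 6 libraries in 2 groups and carry no test.

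**Figure D5:**
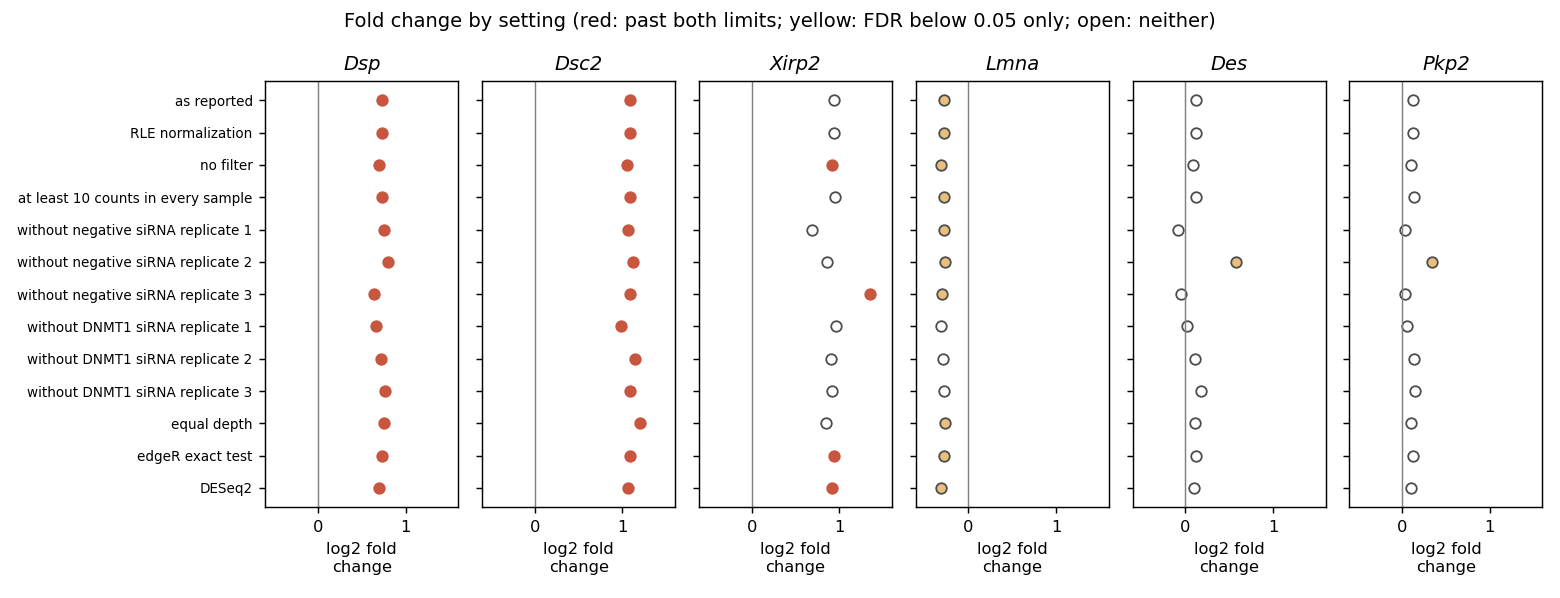
Log2 fold change (horizontal axis) of 6 of the genes as reported and in other settings (rows); red points passed both limits, yellow points the FDR limit only. The replicate block, in which Xirp2 passed both limits and Lmna missed the FDR limit, is not drawn. Dsp and Dsc2 are red in every row, Xirp2 is red in some rows, Lmna is never red, and Des and Pkp2 move with negative siRNA replicate 2.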

How the data were processed

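The authors mapped poly(A) RNA-Seq reads to the mouse genome (mm10) with TopHat2, assigned them to Ensembl genes with HTSeq. The deposited values are the resulting whole-number counts of each library, not normalized. FastQC is also named in the submitters' processing notes, and the strand setting of the counting is not given in the sources used here. Rows that count reads outside genes were left out of totals and tests.

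Counts were tested in R 4.3.3 with edgeR 4.0.16 (TMM, filterByExpr with a minimum count of 10 and a minimum total of 15, quasi-likelihood F test, Benjamini-Hochberg adjustment over 15470 genes), DESeq2 1.42.0 being an alternative. The study's limits, an FDR below 0.05 and a fold change above 1.5, were kept. SE was derived from each gene's log2 fold change and F statistic. The procedure was checked on simulated counts. Shares and ratios were compared by exact permutation tests in scipy 1.17.1. Gene positions and exon lengths came from GENCODE M21, and promoter windows from RefSeq.

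The members and lists were chosen with earlier results of these data known. Outside the 10 genes, called genes were named, at most the 4 with the largest fold change per list, with Ctnnb1, Ctnna1, Cdh2, Pkp4, Xirp1 and Gja1 in any case, and for each of Dsp and Dsc2 the 2 genes of most similar pattern. Alternatives were DESeq2, edgeR's exact test, RLE normalization, no filter, at least 10 counts in every sample, a replicate block, leaving out each culture, equal depth, no fold limit and the longest transcript as length. No 2 libraries of a group agreed within sampling noise by a chi-square test of their counts. The values per degree of freedom were 29.06 to 60.02 with negative siRNA and 2.90 to 10.78 with DNMT1 siRNA. One result from the wider lists is not reported here.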

Additional observations from a re-analysis of the deposited data

How the results depend on the processing

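Dsp and Dsc2 were called higher in every fit, and Xirp2 joined them with DESeq2, edgeR's exact test, no filter, a replicate block and without negative siRNA replicate 3, so that 2 or 3 of the 10 genes were higher. No gene of the 10 was called lower under any alternative with the fold limit, and 1 (Lmna) was without it. Leaving out a culture moved the log2 fold change of Des from -0.086 to 0.58. Of all tested genes, 1004 were called, 1695 with no filter, 1928 with no limit on fold change and 367 to 1245 when a culture was left out (462, 367 and 459 without DNMT1 siRNA replicates 1, 2 and 3). Of the wider lists, 13 genes were higher and 2 lower, 22 and 6 with no limit on fold change, 8 to 13 and 1 to 3 when a culture was left out, and 5 or 4 were lower with no filter or the exact test. Same-numbered cultures were not treated as pairs in the reported fit. Their deviations correlated at -0.02 to 0.03, and 0 of 3 DNMT1 siRNA cultures correlated best with their own number. With 3 cultures per treatment this cannot show whether they shared a litter, and the labels do not say. The replicate block gave 3 higher and 0 lower genes of the 10, 798 called genes, and 12 and 2 in the wider lists. The edgeR adjusted p of Lmna was then 0.069. The causes of these shifts were not tested. At 49 to 130 counts per library, the 95% interval of Ctnna3 (up to 0.75 on the log2 scale) still held a difference as large as that of Dsp.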

Other observations

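The nuclear envelope list, in which no gene passed the fold limit, held 4 of 15 genes higher and 2 lower by the FDR limit alone. By that limit 6.81% of all tested genes were higher and 5.65% lower. The genes named here were all chosen for mention after their values were seen. Sun1 and Syne2, of the complex that couples the nucleus to the cytoskeleton, had log2 fold changes of 0.30 and 0.39, Lbr, the lamin B receptor, 0.41, and Zmpste24, the protease that matures prelamin A, 0.31. Emd, emerin, and Lemd2 stood at -0.33 and -0.45, beside the -0.28 of Lmna, while Lmnb1 and Lmnb2, the B-type lamins, stood at -0.12 and 0.10 and did not pass the FDR limit.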
